A study of Danio rerio with 9 samples.

Results

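The genes described here encode the proteins that dock secretory vesicles at a membrane and fuse the membranes. They were chosen by name, as every gene of the table whose symbol begins with syt, sytl, stx, stxbp, vamp, snap, unc13 or rab3 followed by a family number or letter, without the snapc and snapin genes. The rule found 81 of the 27158 genes, comprising 24 synaptotagmins, 5 synaptotagmin-like genes, 21 syntaxins, 9 syntaxin-binding genes, 6 VAMP genes, 7 SNAP genes, 3 unc13 genes and 6 rab3 genes. One of them, snap91, shares the SNAP prefix but encodes the clathrin adaptor AP180 and is not a SNARE. Relatives that the table lists under human-style capital symbols fell outside the rule and are described separately.

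RNA was sequenced from thyroid tumors of transgenic zebrafish. In 4 tumors (replicates 2, 3, 5 and 6) a fragment of the zebrafish thyroglobulin promoter drove human CCDC6-RET, a fusion kinase of thyroid cancer, and the transgene had been placed in fish with a red thyroid reporter (tg:TdTomato). In 5 tumors (replicates 1, 2, 3, 6 and 7) the transgene under this promoter was BRAF(V600E), the mutant kinase of many thyroid cancers, in a line from an earlier model. Both groups are labelled adult, and the comparison asked how RET-driven tumors differ from BRAF-driven tumors. In the study's onset cohort the BRAF(V600E) fish also carried mutant p53. Whether that allele was present in the tumors sequenced is not labelled, so it and the oncogene cannot be told apart. Nor do the labels tie libraries to separate fish, and p-values then measure the spread between these samples.

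In membrane fusion a VAMP protein on the vesicle zips together with a syntaxin and a SNAP-25 family protein on the target membrane, forming a SNARE complex. Sec1/Munc18 proteins, encoded by stxbp genes, hold the syntaxin, UNC13 proteins prime the vesicle, and RAB3 GTPases and synaptotagmin-like proteins tether it. Synaptotagmins carry C2 domains, and several of them trigger fusion when calcium rises, while others do not bind calcium. Neurons use a specialised set of these proteins for transmitter release. Thyroid follicular cells release thyroglobulin into the follicle by exocytosis and take it back up by endocytosis.

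Total counts ran from 8662544 to 13596477 in CCDC6-RET libraries and from 10656967 to 13354953 in BRAF(V600E) libraries. Levels are given as CPM (counts scaled to a common library size) by TMM, in the order of the replicate numbers above. Fold changes are log2 of CCDC6-RET over BRAF(V600E) with the standard error after ±, from edgeR's quasi-likelihood test, and a gene was called when its Benjamini-Hochberg adjusted p over all 18453 tested genes was under 0.05. As a check of the tissue, the follicular cell marker tg had 12210 to 30054 CPM in CCDC6-RET tumors, against 2444 to 21275 CPM in BRAF(V600E) tumors. Of 11 follicular cell markers, 9 were higher in CCDC6-RET tumors and 0 were lower. Markers of several other cells were lower in CCDC6-RET tumors, among them all 22 tested skeletal muscle markers and 8 of 10 macrophage markers. Neuron markers went both ways (values are given beside the neuronal genes), of 3 tested photoreceptor markers 1 was higher and 0 were lower, and of 9 endothelial markers 4 were lower and 5 were not called. In these bulk samples, fewer cells of a type and less RNA per cell cannot be told apart.

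Of the 81 genes, 57 had enough counts to be tested, and 43 of them were called. This share of 75.4% stood beside 72.1% of all tested genes. In CCDC6-RET tumors 21 were higher and 22 were lower, against a background of 33.9% higher and 38.2% lower calls. Values of the groups did not overlap for 41 of the 57 genes (71.9%), against 64.8% of all tested genes. The median log2 fold change was −0.028, and that of all tested genes was −0.087. Setting snap25a, which had 0 counts in CCDC6-RET tumors, to its lower bound leaves the members' median in place. The calls divided the genes between the tumor types. Scaling to ribosomal protein genes in place of TMM shifted the median over all genes by −0.56, and under it 12 members were higher and 28 were lower. Of all 18453 tested genes, 3072 were higher and 8905 were lower under this scaling.

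The filter on low counts shaped this split. Of the tested genes, 14 reached the filter's level of 0.852 CPM in BRAF(V600E) tumors but in at most 1 CCDC6-RET tumor, and all of these could pass only by being higher in BRAF(V600E) tumors. The reverse held for syt6a alone. Besides synaptotagmins named below, the 14 included rab3da, snap25a, stx11b.1, stx11b.2, stx19 and sytl2b. Adjusted p-values of such genes follow this selection and are not independent support for a difference. Among the 34 genes above the filter's level in all 9 libraries, 19 were higher in CCDC6-RET tumors, 4 were lower and 11 were not called. Their median log2 fold change was 0.66. This condition drops genes that are low in either group, and it was not applied to all tested genes. The split of the 34 therefore has no background share and cannot be read as a lean of these genes. The 24 untested genes had 275 counts in all over the CCDC6-RET libraries and 712 over the BRAF(V600E) libraries, and 19 of them had the lower pooled rate in CCDC6-RET tumors.

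**Figure D1:**
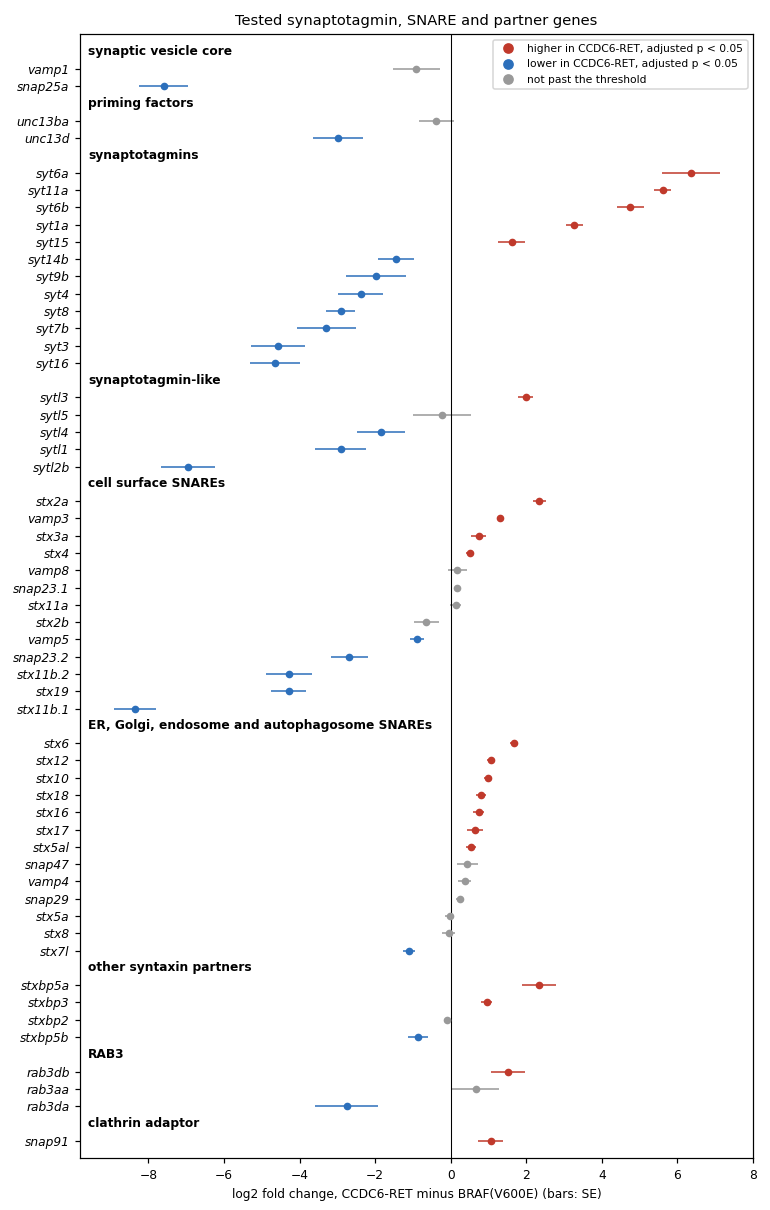
Log2 fold change (CCDC6-RET over BRAF(V600E), x axis) of 55 of the tested genes, grouped by role, with bars of 1 SE. Red points were higher in CCDC6-RET tumors (21 genes), blue points were lower (20 genes) and grey points were not past the threshold (14 genes); the synaptotagmins spread to both sides, and the SNAREs of internal membranes lie near or right of 0 except stx7l. The position of snap25a, which had no count in CCDC6-RET tumors, depends on the fit and is not a bound.

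Counts of the 81 genes made up 0.203 to 0.227% of all counts in CCDC6-RET libraries and 0.130 to 0.142% in BRAF(V600E) libraries. Their summed level was 2083 to 2531 CPM in CCDC6-RET tumors, against 1246 to 1336 CPM in BRAF(V600E) tumors, with no overlap. The number of members with at least 1 count went the other way, at 62 to 67 per CCDC6-RET library and 75 to 79 per BRAF(V600E) library. Over the whole table, too, fewer genes were detected in CCDC6-RET libraries, at 20691 to 21407, against 23453 to 23916 in BRAF(V600E) libraries. A single gene, syt11a, held 23.5 to 26.7% of the members' counts in CCDC6-RET libraries and 0.71 to 1.39% in BRAF(V600E) libraries. Without syt11a, the remaining members summed to 1527 to 1936 CPM in CCDC6-RET tumors, against 1228 to 1327 CPM in BRAF(V600E) tumors. These CPM sums were scaled by TMM and were not computed with ribosomal protein scaling, which shifted the median over all genes by −0.56. The size of the gap therefore depends on the scaling.

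**Figure D2:**
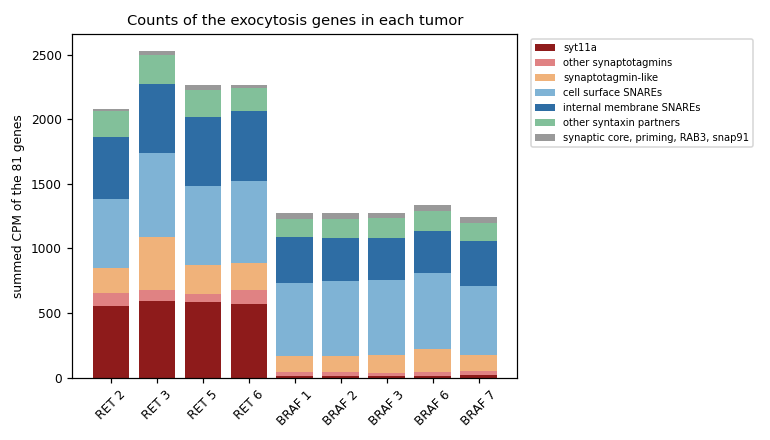
Stacked bars of the summed CPM of all 81 genes in each tumor, divided by role, with CCDC6-RET tumors on the left. The dark red block is syt11a (556 to 595 CPM in CCDC6-RET tumors, against 9.47 to 17.3 CPM in BRAF(V600E) tumors), and the block of internal membrane SNAREs is also taller in CCDC6-RET tumors.

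Of 24 synaptotagmins 12 were tested, of which 5 were called higher and 7 lower in CCDC6-RET tumors, where 72.1% of all tested genes were called. The filter bears on this count, since 6 of the 7 lower genes (syt3, syt4, syt7b, syt8, syt14b and syt16) passed it only through BRAF(V600E) libraries, and syt6a only through CCDC6-RET libraries, so that they could be tested only if they differed. The gene syt11a (chromosome 19, 24398243 to 24450487, GRCz10) encodes a synaptotagmin that does not bind calcium and that restrains endocytosis in mouse neurons. It had 556, 595, 585 and 570 CPM in CCDC6-RET tumors, against 12.5, 10.18, 9.47, 9.48 and 17.3 CPM in BRAF(V600E) tumors. The CCDC6-RET tumors lay close together, with a coefficient of variation of 2.99%, and far above every BRAF(V600E) tumor. The log2 fold change was 5.61 ± 0.21 (edgeR's adjusted p = 4.8e-07). Human SYT11, SYT6 and UNC13A stand in a signature that the study drew from these same samples, so the direction of their fish counterparts is not independent evidence.

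The gene syt1a (chromosome 4, 21408781 to 21594424) is a fish copy of SYT1, the calcium sensor of fast transmitter release. It had 34.6, 51.0, 27.8 and 46.5 CPM in CCDC6-RET tumors, against 3.68, 4.82, 4.09, 4.64 and 3.36 CPM in BRAF(V600E) tumors. The lowest CCDC6-RET tumor was well above the highest BRAF(V600E) tumor, and the log2 fold change was 3.27 ± 0.22 (edgeR's adjusted p = 2.48e-06). Its paralog syt1b was barely detected, with 0 counts over the CCDC6-RET libraries and 1 count over the BRAF(V600E) libraries.

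Both copies of SYT6, which takes part in exocytosis of the mammalian sperm acrosome, were higher. The copy syt6b had 43.3, 23.0, 21.4 and 47.8 CPM in CCDC6-RET tumors, against 1.61, 0.893, 0.956, 0.983 and 1.75 CPM in BRAF(V600E) tumors, with a log2 fold change of 4.76 ± 0.35 (edgeR's adjusted p = 4.16e-06). The copy syt6a had 8.91, 1.16, 5.20 and 3.90 CPM in CCDC6-RET tumors, against 0, 0.0893, 0.0869, 0.0702 and 0 CPM in BRAF(V600E) tumors. Only 3 counts were seen over all BRAF(V600E) libraries, against 232 over the CCDC6-RET libraries. The ratio of the pooled rates was 109, with an exact 95% interval of 36.8 to 532 for counting error alone (edgeR's adjusted p = 6.24e-05). The fifth higher gene, syt15, had 2.52 to 4.19 CPM in CCDC6-RET tumors, against 0.658 to 1.70 CPM in BRAF(V600E) tumors, with a log2 fold change of 1.61. It overlaps zgc:112285, which was higher by 1.89, and reads shared by the pair could not be assigned.

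Synaptotagmins that were lower in CCDC6-RET tumors had low levels throughout. For syt16, a member without calcium binding, CCDC6-RET tumors had 0.151, 0, 0.325 and 0 CPM and BRAF(V600E) tumors 2.06, 3.75, 3.22, 5.27 and 3.51 CPM. The log2 fold change of syt16 was −4.64 ± 0.67 (−5.62 without CCDC6-RET tumor 5). For syt8, CCDC6-RET tumors had 0.378, 0.642, 0.244 and 0.571 CPM and BRAF(V600E) tumors 2.96, 2.77, 3.82, 4.92 and 2.56 CPM, a log2 fold change of −2.91 ± 0.38. In neither gene did the groups overlap, and edgeR's adjusted p was 0.000172 for syt16 and 9.61e-05 for syt8.

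The high-affinity calcium sensors syt3 and syt7b fell with them. The gene syt3 had 3 counts over the CCDC6-RET libraries and 117 over the BRAF(V600E) libraries, so that the pooled rate in BRAF(V600E) tumors was 27.7 times that in CCDC6-RET tumors (exact 95% counting interval 9.24 to 136). Its fitted log2 fold change was −4.57, or −5.66 without CCDC6-RET tumor 3. SYT7 acts in slow transmitter release and in fusion of lysosomes with the cell surface, and syt7b had 0.0755, 0.771, 0.162 and 0 CPM in CCDC6-RET tumors, against 2.42, 3.13, 1.04, 1.40 and 3.22 CPM in BRAF(V600E) tumors. The log2 fold change of syt7b was −3.29 ± 0.78, and −4.60 without CCDC6-RET tumor 3, the tumor with the highest CCDC6-RET value. The remaining 3 lower genes were syt4 at −2.39 (−3.07 without CCDC6-RET tumor 3), syt14b at −1.45 and syt9b at −1.97. Of these, syt14b shares ground with SAYSD1, which was higher by 1.44, and nt5c1bb, which was lower at −1.33. The level of syt9b varied widely, with 1.96, 0.128, 0.0812 and 3.81 CPM in CCDC6-RET tumors against 4.43 to 6.70 CPM in BRAF(V600E) tumors. Its value was −2.91 without CCDC6-RET tumor 6, and edgeR's adjusted p of 0.0464 crossed the threshold in 11 of 18 alternative analyses (0.00519 to 0.147 over all of them).

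**Figure D3:**
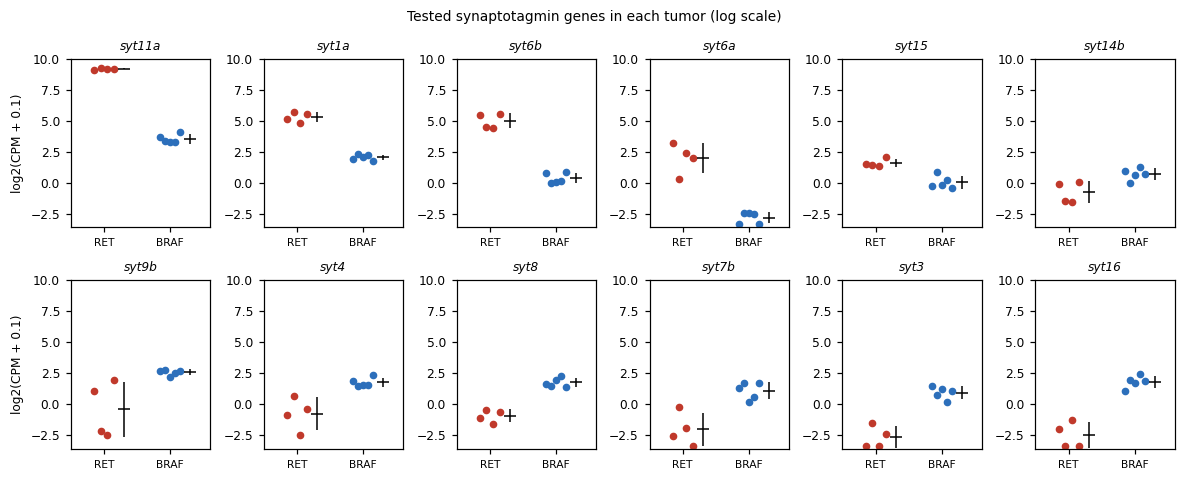
Level of the 12 tested synaptotagmins in each tumor, on a log scale of log2(CPM + 0.1), with CCDC6-RET tumors (red) left of BRAF(V600E) tumors (blue); the black marks give the mean and SD. The first 5 panels, from syt11a to syt15, show genes higher in CCDC6-RET tumors, and the other 7 show genes that were lower, among which syt14b alone overlaps between the groups.

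Summed over all 24 synaptotagmins, the level was 645 to 681 CPM in CCDC6-RET tumors, against 39.0 to 53.3 CPM in BRAF(V600E) tumors. Of these counts syt11a made up 83.7 to 90.7% in CCDC6-RET libraries and 20.9 to 32.5% in BRAF(V600E) libraries. Its own paralog, syt11b, was too low to be tested and pointed the other way, with 2 counts over the CCDC6-RET libraries and 55 over the BRAF(V600E) libraries. The pooled rate of syt11b was 19.5 times higher in BRAF(V600E) tumors (exact 95% counting interval 5.15 to 165). Other untested members with few CCDC6-RET counts were syt12, with 1 count against 58, syt13, with 2 against 38, and syt5a, with 3 against 37. The untested syt14a and syt17 had more counts in CCDC6-RET libraries, at 50 against 23 and 52 against 29.

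SNAP-25 and VAMP1 or VAMP2 are neuronal proteins with which synaptotagmin 1 works at the synapse, as parts of the synaptic SNARE complex. Among their fish genes, snap25a was lower in CCDC6-RET tumors and vamp1 was not called.

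No count of snap25a (chromosome 20, 35010165 to 35053351) was seen in any CCDC6-RET library, which allows up to 0.0684 CPM over the group (3 counts), whereas BRAF(V600E) tumors had 2.06, 2.59, 2.35, 1.90 and 1.39 CPM. Its level was at least 29.6-fold lower in CCDC6-RET tumors (edgeR's adjusted p = 6e-05). It passed the filter only through BRAF(V600E) libraries, so that it could be tested only if it differed.

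The vesicle partner vamp1 overlapped between the groups, at 0.755, 2.95, 0.569 and 1.24 CPM in CCDC6-RET tumors, against 2.06, 2.68, 1.30, 1.12 and 5.34 CPM in BRAF(V600E) tumors. It was not called at −0.91 ± 0.62, and without CCDC6-RET tumor 3 it was called at −1.55 (edgeR's adjusted p = 0.0434). Too low to be tested were vamp2 with 11 counts over the CCDC6-RET libraries against 64 over the BRAF(V600E) libraries, stx1a with 0 against 16 and snap25b with 17 against 16. Among neuron markers, 3 of 9 tested genes were higher and 2 were lower in CCDC6-RET tumors. The summed level of all 19 matched neuron markers was 131 to 205 CPM in CCDC6-RET tumors, against 57.0 to 90.6 CPM in BRAF(V600E) tumors. Most of each CCDC6-RET sum was map2 alone, which was higher by 4.02. It had 70.5 to 137 CPM in CCDC6-RET tumors, against 4.50 to 9.42 CPM in BRAF(V600E) tumors. The sum therefore does not show a rise of the neuron markers as a set. The markers elavl3, inab, syn1 and rbfox3b had 0 counts in every CCDC6-RET library. The part of nerve cells in these results was not tested.

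UNC13 proteins prime docked vesicles by opening the syntaxin. The gene unc13d corresponds to Munc13-4, which primes the granules of human cytotoxic lymphocytes and of other blood cells. It had 0.755, 3.72, 0.162 and 3.81 CPM in CCDC6-RET tumors, against 14.7, 16.2, 16.2, 18.1 and 15.5 CPM in BRAF(V600E) tumors. The groups lay far apart, and the log2 fold change was −2.97 ± 0.66 (edgeR's adjusted p = 0.00256). The gene unc13ba was not called, at −0.38 ± 0.47. The untested unc13c had 77 counts over the CCDC6-RET libraries and 4 over the BRAF(V600E) libraries, of which CCDC6-RET tumor 5 held the fewest at 0.162 CPM.

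Relatives of unc13 outside the naming rule moved the other way from unc13d. The gene listed as UNC13A, for the main priming factor of mammalian synapses, had 42.6, 10.9, 46.4 and 41.6 CPM in CCDC6-RET tumors, against 0.987, 0.268, 0.608, 0.492 and 0.731 CPM in BRAF(V600E) tumors. Its log2 fold change was 5.82 ± 0.50 (edgeR's adjusted p = 8.7e-06). Apart from BRAF(V600E) tumor 1, the BRAF(V600E) tumors were under the filter's level of 0.852 CPM. UNC13A thus passed the filter only through CCDC6-RET libraries, and its adjusted p follows this selection. UNC13B had 101, 75.0, 48.2 and 89.4 CPM in CCDC6-RET tumors, against 12.1, 8.93, 9.82, 10.7 and 9.51 CPM in BRAF(V600E) tumors, with a log2 fold change of 2.94 ± 0.21. Thus the 2 capital-letter UNC13 genes were higher, unc13d was lower and unc13ba was not called. The untested unc13c had more counts in CCDC6-RET libraries, so the genes within the rule also went both ways. Of the other relatives, STXBP6, which codes for the SNARE-binding protein amisyn, was higher by 3.34 (21.7 to 75.5 CPM against 4.78 to 5.74 CPM in BRAF(V600E) tumors). The gene sybl1, for the lysosomal vesicle SNARE VAMP7, was higher by 0.68. Further copies listed as VAMP1 and STX3 were too low to be tested and pointed the other way. VAMP1 had 0 counts over the CCDC6-RET libraries and 18 over the BRAF(V600E) libraries, of which BRAF(V600E) tumor 6 held 12. STX3 had 1 count against 16.

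Synaptotagmin-like proteins bind the GTPase RAB27 on secretory granules. Of 5 genes, sytl3 was higher, sytl1, sytl2b and sytl4 were lower, and sytl5 was not called. The gene sytl3 had 189, 372, 209 and 205 CPM in CCDC6-RET tumors, against 61.3, 58.5, 61.6, 68.5 and 57.5 CPM in BRAF(V600E) tumors. CCDC6-RET tumor 3 stood above the other 3, and every CCDC6-RET tumor was above every BRAF(V600E) tumor. The log2 fold change was 1.99 ± 0.20 (edgeR's adjusted p = 2.11e-05). Its end overlaps ezrb, which was not called at −0.24.

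The gene sytl2b had 0.227, 0.385, 0 and 0 CPM in CCDC6-RET tumors, against 12.2, 15.4, 18.5, 33.4 and 12.4 CPM in BRAF(V600E) tumors, giving a log2 fold change of −6.94 ± 0.71 (−7.63 without CCDC6-RET tumor 3). The second copy, listed as SYTL2, was also lower, at −1.93 ± 0.58, or −3.06 without CCDC6-RET tumor 3. SYTL2 anchors pigment granules at the cell edge in mammals. The gene sytl1 had 0.680, 4.62, 1.71 and 0.190 CPM in CCDC6-RET tumors, against 12.6, 17.6, 11.6, 13.8 and 9.65 CPM in BRAF(V600E) tumors, giving a log2 fold change of −2.91 ± 0.67 (−3.88 without CCDC6-RET tumor 3). Thus sytl1, sytl2b and SYTL2 each had their highest CCDC6-RET value in tumor 3.

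The gene sytl4 encodes granuphilin, which docks insulin granules in mammalian beta cells. It had 3.02, 27.5, 12.1 and 2.86 CPM in CCDC6-RET tumors, against 29.8, 30.6, 42.2, 58.9 and 41.4 CPM in BRAF(V600E) tumors. CCDC6-RET tumor 3 came close to the lowest BRAF(V600E) tumor, and the log2 fold change of −1.85 ± 0.64 (edgeR's adjusted p = 0.0246) was −2.76 without that tumor. The call was lost without CCDC6-RET tumor 2 (edgeR's adjusted p = 0.0518) or BRAF(V600E) tumor 6 (edgeR's adjusted p = 0.052). For sytl5, CCDC6-RET tumors had 3.62, 0.899, 0 and 1.33 CPM and spanned all 5 BRAF(V600E) tumors at 1.39 to 2.32 CPM. Its log2 fold change of −0.24 was −1.24 without CCDC6-RET tumor 2, and it was called in neither case. The RAB27 genes to which these proteins bind were both lower. The gene rab27a had 3.21 to 8.23 CPM in CCDC6-RET tumors, against 18.9 to 24.1 CPM in BRAF(V600E) tumors, giving a log2 fold change of −1.87, and rab27b was lower by a log2 fold change of −3.14.

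Of the 13 SNAREs that work chiefly at the cell surface or on vesicles bound for it, 4 were higher, 5 were lower and 4 were not called. Among all tested genes 33.9% were higher and 38.2% were lower. The summed level of these 13 SNAREs was 533 to 651 CPM in CCDC6-RET tumors, against 534 to 587 CPM in BRAF(V600E) tumors, so the groups overlapped. The vesicle SNARE vamp3, which in mammals serves recycling endosomes, had 201, 204, 220 and 228 CPM in CCDC6-RET tumors, against 90.4, 83.2, 82.1, 86.4 and 88.8 CPM in BRAF(V600E) tumors. The groups were far apart with little spread in either, and the log2 fold change was 1.31 ± 0.09 (edgeR's adjusted p = 3.41e-06). The plasma membrane syntaxin stx2a had 36.8, 37.2, 34.9 and 48.2 CPM in CCDC6-RET tumors, against 10.3, 6.79, 6.26, 7.66 and 7.53 CPM in BRAF(V600E) tumors, giving a log2 fold change of 2.35 ± 0.18 (edgeR's adjusted p = 4.75e-06). It overlaps dnai1.2, which was higher by 1.67 at 1.41 to 3.32 CPM in CCDC6-RET tumors.

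In epithelial cells syntaxin 3 marks the apical surface and syntaxin 4 the basolateral surface. The gene stx3a was higher by 0.74 ± 0.19 (edgeR's adjusted p = 0.00648), with 19.0 to 36.5 CPM in CCDC6-RET tumors, against 13.0 to 17.3 CPM in BRAF(V600E) tumors. The gene stx4 was higher by 0.51 ± 0.10 (edgeR's adjusted p = 0.00127), with 68.3 to 76.8 CPM in CCDC6-RET tumors, against 45.9 to 58.3 CPM in BRAF(V600E) tumors. Both calls were lost with ribosomal protein scaling, at 0.13 for stx3a and −0.049 for stx4, so that stx4 changed sign.

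The largest fall of all members, among those with counts in both groups, was that of stx11b.1. It is a copy of syntaxin 11, which in humans is required for release of cytotoxic granules. The gene (chromosome 20, 26639047 to 26642087) had 0.453, 0.899, 0 and 0.190 CPM in CCDC6-RET tumors, against 108, 137, 124, 125 and 100 CPM in BRAF(V600E) tumors, or 15 counts in all against 7309. The log2 fold change was −8.36 ± 0.55 (edgeR's adjusted p = 2.52e-06), and −9.0 without CCDC6-RET tumor 3. The neighbouring copy stx11b.2 had 0.302, 0.771, 0 and 0.571 CPM in CCDC6-RET tumors, against 7.0, 8.93, 6.17, 9.69 and 6.14 CPM in BRAF(V600E) tumors, giving a log2 fold change of −4.27 ± 0.61. The copies lie side by side, and reads may have been divided between them with error. Both passed the filter only through BRAF(V600E) libraries, so that they could be tested only if they differed. The third copy, stx11a, on chromosome 17, was not called at 0.13 ± 0.15, with 11.1 to 15.3 CPM in CCDC6-RET tumors, against 10.22 to 12.6 CPM in BRAF(V600E) tumors.

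Together with unc13d, rab27a and stxbp2, syntaxin 11 belongs to the human machinery of cytotoxic granules. Of these, unc13d and rab27a were lower, while stxbp2 was not called at −0.088 ± 0.10, with 63.8 to 76.1 CPM in CCDC6-RET tumors, against 69.3 to 77.0 CPM in BRAF(V600E) tumors, although it was called lower on plain library totals (−0.27) and with ribosomal protein scaling (−0.66). Of 9 tested T and NK cell markers, 8 were lower and 1 was higher, and the summed level of that list was 53.2 to 117 CPM in CCDC6-RET tumors, against 118 to 152 CPM in BRAF(V600E) tumors. Macrophage markers summed to 156 to 648 CPM in CCDC6-RET tumors, against 3659 to 5251 CPM in BRAF(V600E) tumors, with 0 of 10 higher. Keratinocyte markers, of which 11 of 12 were lower, summed to 1079 to 1807 CPM in CCDC6-RET tumors, against 13590 to 34958 CPM in BRAF(V600E) tumors. The part of these cells in the levels of stx11b.1, stx11b.2, unc13d and the lower synaptotagmin-like genes was not tested.

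The remaining surface SNAREs included further falls. The gene stx19 had 0.302, 0.771, 0.162 and 0.0952 CPM in CCDC6-RET tumors, against 5.65, 6.70, 6.17, 6.60 and 6.07 CPM in BRAF(V600E) tumors, giving a log2 fold change of −4.29 ± 0.47 (−4.94 without CCDC6-RET tumor 3). VAMP5 is abundant in mammalian muscle, and vamp5 had 28.0, 38.4, 28.8 and 50.4 CPM in CCDC6-RET tumors, against 72.0, 66.2, 78.0, 62.4 and 61.1 CPM in BRAF(V600E) tumors, giving a log2 fold change of −0.90 ± 0.19 (edgeR's adjusted p = 0.00166). Skeletal muscle markers summed to 23.3 to 75.1 CPM in CCDC6-RET tumors, against 6876 to 23755 CPM in BRAF(V600E) tumors, and their part in the level of vamp5 was not tested. On the same chromosome nearby, vamp8 was not called at 0.18 ± 0.25 and had a wide range in CCDC6-RET tumors, at 59.8, 162, 114 and 85.6 CPM, that took in all BRAF(V600E) tumors at 82.5 to 105 CPM.

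SNAP-23 proteins replace SNAP-25 outside neurons. The gene snap23.1 was not called at 0.18 ± 0.09, with 87.1, 82.2, 86.1 and 96.1 CPM in CCDC6-RET tumors, against 76.0, 81.4, 76.4, 79.2 and 75.1 CPM in BRAF(V600E) tumors, but was called lower with ribosomal protein scaling (−0.38). Its tandem copy snap23.2 had 2.27, 2.83, 0.569 and 0.762 CPM in CCDC6-RET tumors, against 8.52, 8.66, 16.3, 7.87 and 9.58 CPM in BRAF(V600E) tumors, giving a log2 fold change of −2.68 ± 0.49 (edgeR's adjusted p = 0.000804). The values of snap23.1 did not overlap either, but they differed by little. An unnamed model that overlaps both copies, CR628327.1, had 5 counts over the CCDC6-RET libraries and 27 over the BRAF(V600E) libraries. The copy snap23.1 also overlaps ccdc28a, which was higher by 0.43. The level of ccdc28a was 57.3 to 84.1 CPM in CCDC6-RET tumors, against 45.4 to 53.4 CPM in BRAF(V600E) tumors.

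Of 13 tested SNARE genes that serve the endoplasmic reticulum, Golgi, endosomes or autophagosomes, 7 were higher in CCDC6-RET tumors, 1 was lower and 5 were not called, beside 33.9% higher and 38.2% lower among all tested genes. The grouping by role was made with the calls known. All 13 genes were above the filter's level in every library, whereas all tested genes include genes that were low in one group. These shares are therefore not a like background, and the split cannot be read as a lean of these SNAREs. With the untested stx12l added (14 genes), the summed level was 483 to 541 CPM in CCDC6-RET tumors, against 327 to 351 CPM in BRAF(V600E) tumors. These sums did not overlap by TMM. They were not computed with ribosomal protein scaling, which shifted the median over all genes by −0.56, so the gap depends on the scaling. The changes were small beside those of the synaptotagmins, and with ribosomal protein scaling stx6, stx12 and stx10 kept their calls whereas stx16, stx17, stx18 and stx5al lost them.

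The syntaxin of the trans-Golgi network and early endosomes, stx6, had 82.8, 86.6, 83.4 and 83.5 CPM in CCDC6-RET tumors, against 28.0, 28.7, 28.1, 21.6 and 24.9 CPM in BRAF(V600E) tumors. Its log2 fold change was 1.68 ± 0.11 (edgeR's adjusted p = 2.48e-06). The recycling endosome syntaxin stx12 had 78.5, 82.2, 81.3 and 87.0 CPM in CCDC6-RET tumors, against 44.3, 38.0, 35.6, 37.1 and 41.3 CPM in BRAF(V600E) tumors, giving a log2 fold change of 1.07 ± 0.10 (edgeR's adjusted p = 1.38e-05). For stx10, a Golgi syntaxin in humans, CCDC6-RET tumors had 64.0, 79.4, 66.9 and 72.3 CPM and BRAF(V600E) tumors 37.3, 39.5, 36.6, 32.2 and 32.0 CPM, a log2 fold change of 0.99 ± 0.11. In all 3 genes the CCDC6-RET tumors lay close together and clear of the BRAF(V600E) tumors. Neighbouring models overlap 2 of them, trnau1apa on stx12, which was itself higher by 1.01, and CR855274.1 on stx10, which was not called at −0.62.

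The trans-Golgi syntaxin stx16 was higher by 0.74 ± 0.14 (50.3 to 78.2 CPM in CCDC6-RET tumors, against 34.7 to 43.8 CPM in BRAF(V600E) tumors). The ER syntaxin stx18 was higher by 0.81 ± 0.14 (20.2 to 24.3 CPM in CCDC6-RET tumors, against 10.7 to 14 CPM in BRAF(V600E) tumors). The autophagosome syntaxin stx17 was higher by 0.65 ± 0.21 with overlapping groups (6.04 to 11.4 CPM in CCDC6-RET tumors, against 5.29 to 6.43 CPM in BRAF(V600E) tumors), and its call was also lost on plain library totals (edgeR's adjusted p = 0.0916). It lies inside the much larger model of erp44, which was higher by 0.94. The Golgi syntaxin stx5al was higher by 0.54 ± 0.13, or −0.035 with ribosomal protein scaling.

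The single lower gene was stx7l, named for the late endosome syntaxin 7. It had 7.93, 8.22, 9.91 and 7.24 CPM in CCDC6-RET tumors, against 17.3, 18.5, 16.7, 20.3 and 17 CPM in BRAF(V600E) tumors, giving a log2 fold change of −1.11 ± 0.15 (edgeR's adjusted p = 0.000127). Not called were stx5a (−0.028), stx8 (−0.053), snap29 (0.24), vamp4 (0.37) and snap47 (0.44). Leaving out CCDC6-RET tumor 3 brought snap47 past the threshold at 0.63 (edgeR's adjusted p = 0.0315), and leaving out CCDC6-RET tumor 2 did so for vamp4 at 0.50 (edgeR's adjusted p = 0.0215). With ribosomal protein scaling stx5a and stx8 were called lower, at −0.59 (edgeR's adjusted p = 0.0108) and −0.61 (edgeR's adjusted p = 0.0335). Of these, stx5a had 58.3 to 80.9 CPM in CCDC6-RET tumors, against 62.3 to 71.7 CPM in BRAF(V600E) tumors. The untested stx12l had 2 counts over the CCDC6-RET libraries and 59 over the BRAF(V600E) libraries.

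**Figure D4:**
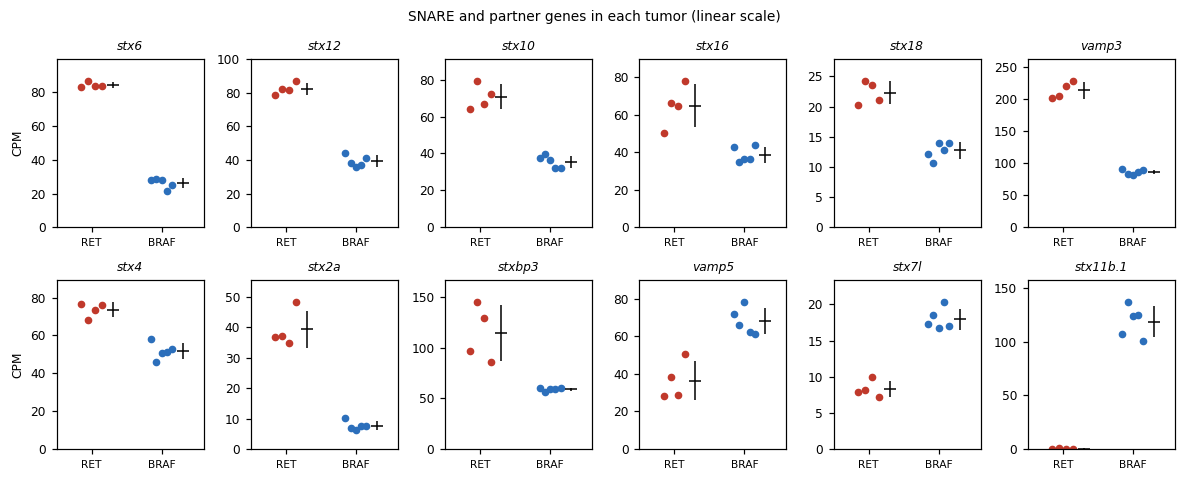
CPM in each tumor of 12 SNARE and partner genes, each panel on its own linear axis from 0, with CCDC6-RET tumors (red) left of BRAF(V600E) tumors (blue) and the mean and SD in black. In stx6, vamp3 and stx2a the CCDC6-RET points sit well above the BRAF(V600E) points, and in stx11b.1 they sit between 0 and 0.899 CPM.

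Other syntaxin partners also divided. The gene stxbp3 encodes Munc18c, which in mammals pairs with syntaxin 4, and had 97.1, 145, 129 and 85.7 CPM in CCDC6-RET tumors, against 60.4, 56.4, 59.2, 59.1 and 60.5 CPM in BRAF(V600E) tumors. Its log2 fold change was 0.95 ± 0.15 (edgeR's adjusted p = 0.000368), and the call was lost with ribosomal protein scaling (edgeR's adjusted p = 0.068). Tomosyns, encoded by stxbp5 genes, occupy syntaxins and hold back fusion. The copy stxbp5a had 29.4, 4.88, 11.6 and 12.3 CPM in CCDC6-RET tumors, against 3.86, 2.32, 2.52, 2.53 and 3.14 CPM in BRAF(V600E) tumors, giving a log2 fold change of 2.34 ± 0.45 (1.75 without CCDC6-RET tumor 2). The copy stxbp5b had 8.76, 3.98, 8.12 and 4.38 CPM in CCDC6-RET tumors, against 10.3, 11.8, 12.9, 12.1 and 10.5 CPM in BRAF(V600E) tumors, giving a log2 fold change of −0.86 ± 0.26. Both calls passed (edgeR's adjusted p = 0.00105 and 0.0148), in opposite directions.

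RAB3 GTPases sit on secretory vesicles, and RAB3D is the form known from mammalian exocrine granules. The copy rab3da had 0.604, 0.385, 3.90 and 0 CPM in CCDC6-RET tumors, against 8.43, 10.004, 7.04, 10.5 and 6.95 CPM in BRAF(V600E) tumors. It was lower, at −2.75 ± 0.83 (edgeR's adjusted p = 0.0135), or −4.60 without CCDC6-RET tumor 5, which held 48 of its 59 counts. The copy rab3db had 2.64, 5.65, 11.8 and 4.47 CPM in CCDC6-RET tumors, against 2.96, 1.61, 1.48, 1.62 and 3.07 CPM in BRAF(V600E) tumors, and was higher by 1.51 ± 0.45 although the groups overlapped (edgeR's adjusted p = 0.0125, and 0.0938 with ribosomal protein scaling). CCDC6-RET tumor 5 had the highest value of both copies within its group. The gene rab3aa was not called at 0.67 ± 0.62, with 1.06, 10.5, 9.10 and 1.62 CPM in CCDC6-RET tumors on both sides of the BRAF(V600E) tumors at 2.60 to 4.66 CPM.

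The clathrin adaptor gene snap91 had 5.06, 6.29, 8.04 and 3.05 CPM in CCDC6-RET tumors, against 4.13, 2.77, 1.91, 2.18 and 2.49 CPM in BRAF(V600E) tumors. It was higher by 1.06 ± 0.34 with overlapping groups (edgeR's adjusted p = 0.0171), and the call was lost without CCDC6-RET tumor 5 (edgeR's adjusted p = 0.0531) and with ribosomal protein scaling (edgeR's adjusted p = 0.238).

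Zebrafish hold many of these genes as pairs of copies, and the counts of the copies could be set against each other within each tumor, which does not depend on library scaling. Both copies were tested in 7 pairs, and their log2 ratio did not overlap between the groups in 6. No such share was computed for pairs over the whole table, where 64.8% of single tested genes did not overlap. Of the copies, rab3da, stx11b.1 and stx11b.2 passed the filter only through BRAF(V600E) libraries. For rab3da over rab3db the mean log2 ratio was −3.47 ± 2.25 in CCDC6-RET tumors and 2.03 ± 0.67 in BRAF(V600E) tumors (SD, n = 4 and 5). For stxbp5a over stxbp5b it was 1.01 ± 0.71 in CCDC6-RET tumors and −2.0 ± 0.42 in BRAF(V600E) tumors, and for stx2a over stx2b it was 2.07 ± 0.88 in CCDC6-RET tumors and −1.10 ± 0.19 in BRAF(V600E) tumors. The copy stx2b itself was not called at −0.64, with 4.11 to 17.4 CPM in CCDC6-RET tumors, against 13.5 to 17.9 CPM in BRAF(V600E) tumors, but was called without CCDC6-RET tumor 5 (−0.99) and by DESeq2. In these 3 pairs the more counted copy differed between the tumor types. In snap23.1 over snap23.2 and stx5a over stx5al the first copy had more counts in every tumor, and the mean log2 ratio was 6.03 in CCDC6-RET tumors against 2.98 in BRAF(V600E) tumors for the snap23 pair and 0.76 in CCDC6-RET tumors against 1.35 in BRAF(V600E) tumors for the stx5 pair. For syt6a over syt6b the ratios overlapped, at −4.24 to −2.04 in CCDC6-RET tumors and −5.61 to −2.81 in BRAF(V600E) tumors. For stx11b.1 over stx11b.2 the mean log2 ratio was −0.16 ± 0.84 in CCDC6-RET tumors and 3.98 ± 0.23 in BRAF(V600E) tumors. No CCDC6-RET tumor had more than 7 counts of either copy. CCDC6-RET tumor 5 had 0 of both, so its ratio of 0 comes only from the 0.5 added to each count. The rab3da over rab3db ratio of −6.57 in CCDC6-RET tumor 6 also depends on that addition, as rab3da had 0 counts there. These ratios are a description, and the pairs were assembled with the calls known.

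**Figure D5:**
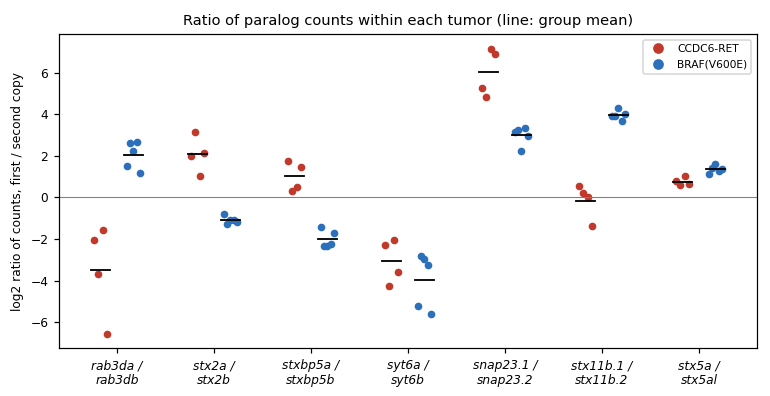
Log2 ratio of the counts of the first over the second copy (0.5 added to each count) in each tumor for 7 pairs, with CCDC6-RET tumors (red) left of BRAF(V600E) tumors (blue) and lines at the group means. Points of the 2 groups lie apart in every pair except syt6a over syt6b, and in the first 3 pairs they lie on opposite sides of 0.

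Genes of neighbouring steps, which are not members, were read in the same fit from lists chosen with earlier results of these data known. The calls in each list stand beside 33.9% higher and 38.2% lower calls among all tested genes. Of 60 matched genes of the presynaptic release machinery only 27 were tested, of which 11 were higher, 10 were lower and 6 were not called. Of the 60 genes, 12 had 0 counts in every CCDC6-RET library, whereas 0 genes were without counts in every BRAF(V600E) library. Over the whole table, too, fewer genes were detected in CCDC6-RET libraries. The active zone scaffold ppfia2 (liprin-alpha 2) had 506, 492, 381 and 361 CPM in CCDC6-RET tumors, against 33.5, 16.3, 14, 11.8 and 20.6 CPM in BRAF(V600E) tumors, giving a log2 fold change of 4.50 ± 0.32 (edgeR's adjusted p = 3.63e-06). Complexins, which clamp SNARE complexes, divided, with cplx2l higher by 5.34 and cplx2 lower at −4.48. CCDC6-RET tumor 3 had 281 CPM of cplx2l and the other CCDC6-RET tumors 7.14 to 17.4 CPM, and without tumor 3 the values were 2.55 for cplx2l and −5.55 for cplx2. With limma-voom cplx2l was not called (adjusted p = 0.0536). The synaptic vesicle protein gene syngr3b was lower at −5.99 (−7.79 without CCDC6-RET tumor 3). Outside CCDC6-RET tumor 3, cplx2 and syngr3b were under the filter's level of 0.852 CPM in every CCDC6-RET tumor. Both could be tested only through BRAF(V600E) libraries. The factors that take SNARE complexes apart after fusion also divided, with nsfb (0.48), napaa (0.73), napab (0.64) and napga (1.45) higher and nsfa (−3.47, or −5.0 without CCDC6-RET tumor 5) and napbb (−1.48) lower. The gene napgb was not called at 0.84, and the untested napba had 0 counts over the CCDC6-RET libraries and 11 over the BRAF(V600E) libraries. Of the higher genes, nsfb, napaa and napab were not called with ribosomal protein scaling, where nsfb changed sign to −0.091.

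Dense core granules are the vesicles that store peptide hormones. Of 13 tested genes of these granules, 8 were lower in CCDC6-RET tumors, 2 were higher and 3 were not called. Among all tested genes 38.2% were lower and 33.9% were higher. In every CCDC6-RET tumor scg3 and rab27b of this list were under the filter's level of 0.852 CPM. These 2 genes could be tested only through BRAF(V600E) libraries. The peptide-processing enzyme gene cpe had 1.81 to 3.33 CPM in CCDC6-RET tumors, against 40.2 to 63.2 CPM in BRAF(V600E) tumors, giving a log2 fold change of −4.32 ± 0.25, and the granin gene scg3 was lower at −5.71. The granin-like vgf went the other way, with 36.3, 12.6, 25.9 and 12.2 CPM in CCDC6-RET tumors, against 0.731 to 1.56 CPM in BRAF(V600E) tumors, giving a log2 fold change of 4.36 ± 0.42. The exocyst, which tethers vesicles at the cell surface, had 7 of 13 genes higher, among them exoc3l1 by 2.36, and 6 lower. Of 19 other SNARE and Sec1/Munc18 genes, 10 were higher, 2 were lower and 7 were not called, with bet1l, a Golgi SNARE, higher by 1.72 and use1, an ER SNARE, by 1.53. Of 9 regulators of RAB3, 6 were higher, 2 were lower and 1 was not called. No background of genes with like levels was computed, so neither of these last splits can be read as a lean. With ribosomal protein scaling, higher calls over all these exocytosis lists fell from 36 to 11. Among all tested genes they fell from 6255 to 3072.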

How the data were processed

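Deposited counts per gene and library, whole numbers that the authors made from paired-end TruSeq reads aligned to GRCz10 with STAR (2.3 in the submitters' processing notes, another release in the study's methods), were analysed in R 4.3.3 with edgeR 4.0.16. How reads were counted, with what strand setting and on which annotation is not given in the sources used here. Assignment of reads to overlapping genes (13 members overlap another model) is therefore uncertain. The authors' normalized counts (signal, counts divided by a size factor), DESeq2 log2 fold changes, Wald statistic (a score) and p-values in the same table were not used.

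Genes were filtered with filterByExpr (minimum count 10), scaled with TMM and compared with estimateDisp, robust glmQLFit and glmQLFTest with no covariate. Standard errors are the absolute log2 fold change over the root of F. A group at 0 allows up to 3 counts over the group. Intervals for 1 to 3 counts are exact at 95%, and both cover counting error only. Steps were tested on simulated data.

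The members and lists were chosen with earlier results of these data known. Named in full were syt1a, syt11a, the neuronal release core, up to 4 members per family and direction with the smallest p, and the member of each family with the highest mean CPM. Other genes, the grouping by role and the paralog pairs were chosen after their values were seen. Of 317 list entries in 18 lists, 278 matched by symbol and 8 through reference tables, and 31 were not matched. Alternatives (18) were DESeq2 1.42.0 and its size factors, limma-voom (limma 3.58.1), ribosomal protein scaling (80 genes), library totals, no or another filter (1 CPM in 4 libraries), each library left out, and a replicate block. A few members enter the counts but are not reported here by name.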

Additional observations from a re-analysis of the deposited data

Results flagged for a closer look

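In each group of 4 or 5 tumors the highest or lowest value of the 49 named members was compared with its neighbour (Dixon's criterion). Of 95 group values examined, 5 stood apart, and chance alone gives about 1 in 20. The level of rab3da was 3.90 CPM in CCDC6-RET tumor 5 (48 counts), with the other CCDC6-RET tumors at 0 to 0.604 CPM. The level of sytl3 was 372 CPM in CCDC6-RET tumor 3, with the others at 189 to 209 CPM. The level of snap23.2 was 16.3 CPM in BRAF(V600E) tumor 3, with the others at 7.87 to 9.58 CPM, and that of unc13ba was 1.26 CPM in BRAF(V600E) tumor 1 (14 counts), with the others at 0.695 to 0.804 CPM. For syt1b the value of 0.0702 CPM in BRAF(V600E) tumor 6 was a single count, with the others at 0.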

How the results depend on the processing

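Over the 9 analyses that each left out 1 library, 21 to 23 members were higher and 20 to 28 lower, and the median log2 fold change ran from −0.16 to 0.05. Without a CCDC6-RET library 62 to 64 members were tested, of which 25 to 28 were lower. Without a BRAF(V600E) library 56 or 57 were tested, of which 20 or 21 were lower. Of all 18001 to 18962 genes tested in these fits, 5722 to 6400 were higher and 6412 to 7346 were lower. In the other exocytosis lists 36 genes were higher and 28 lower, with the numbers tested as given above for each list. Among all tested genes 33.9% were higher and 38.2% were lower. Ribosomal protein scaling left 12 members and 11 genes of those lists higher, beside 3072 of all 18453 tested genes. It gave a members' median of −0.59, against −0.64 over all tested genes. Under it snap23.1, stx5a, stx8, stxbp2, stx2b and vamp1 became called as lower. With no filter all 81 members were tested, with 23 higher, 31 lower and a median of −0.91. Over all 27158 genes of that fit, 6592 were higher and 8594 lower, with a median of −0.34. No called member was called in the opposite direction in any alternative. Signs turned for rab3aa (−0.0097 with limma-voom, −0.16 with the replicate block), snap23.1 (−0.38 with ribosomal scaling, −0.0069 on library totals), stx11a (−0.43 with ribosomal scaling, −0.052 on library totals, −0.012 with the block and −0.0078 in the same 6 libraries without it), snap29 (−0.33), snap47 (−0.089), vamp4 (−0.23), stx4 (−0.049), stx5al (−0.035) and nsfb (−0.091) with ribosomal scaling, stx5a (−0.13 to 0.046 with 1 library left out, positive without CCDC6-RET tumor 2 or 6), stx8 (0.046 without CCDC6-RET tumor 3), sytl5 (−1.24 to 0.19 with 1 left out, positive without CCDC6-RET tumor 5, and 0.010 in the 6 libraries below without a block) and vamp8 (−0.45 with ribosomal scaling, −0.015 on library totals, −0.10 to 0.40 with 1 left out, negative without CCDC6-RET tumor 3, and −0.055 with the block). The cause was not tested.

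In the 6 libraries with shared replicate numbers 58 members were tested. A replicate block gave 18 higher and 18 lower members, and the same libraries without it 22 and 19. Of all 18270 genes tested in these libraries, 4442 were higher and 5818 lower with the block. Without it 5331 were higher and 6191 lower. Under the block 9 of the 43 calls were lost, and 4 were lost in the same libraries without it. Deviations of same-numbered tumors had correlations of 0.033, 0.0076 and −0.041, and 1 of 3 CCDC6-RET tumors correlated best with its own number. So few pairs cannot decide whether same-numbered samples share more than a number.

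Depth limits the low members. The 24 untested genes had at most 31 counts in any library, and fitted fold changes of genes with few counts in one group depend on single tumors.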
